A study of Mus musculus with 24 samples.

Results

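Nitric oxide and the natriuretic peptides relax vascular smooth muscle through cyclic GMP (cGMP), and 10 genes of this route were followed here. They were chosen by name, with earlier results of these data known, as the enzyme, cyclase, receptor, kinase and phosphodiesterase genes that make cGMP, carry its signal or remove it: Nos3, Gucy1a1, Gucy1b1, Npr1, Npr2, Npr3, Prkg1, Pde5a, Pde3a and Pde3b. Counts of members beside shares of all genes are therefore descriptions and no test of the set. The deposited count table holds 54752 genes, of which 16463 had enough counts to be tested, and all 10 members were among them, each with 1 Ensembl identifier.

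RNA-Seq was carried out on the ductus arteriosus (DA), the fetal vessel that joins the pulmonary artery to the aorta and closes after birth, and on the ascending aorta. The mouse embryos were taken at E18.5, before the DA closes. The 23 libraries used here comprised 12 of DA (7 from controls and 5 from Prdm6-deficient embryos) and 11 of aorta (6 and 5). Prdm6-deficient embryos were Wnt1Cre;PRDM6f/f, with both alleles of the transcriptional regulator Prdm6 floxed and the Wnt1 promoter driving Cre in the neural crest, which gives rise to smooth muscle of both vessels. Cells of other origins in the dissected vessels keep Prdm6. Controls were PRDM6wt/f without Cre, apart from control DA replicate 3, which was PRDM6wt/wt without Cre, and from 1 embryo that was Wnt1Cre;PRDM6wt/wt and gave control DA replicate 2 and control aorta replicate 3. Prdm6-deficient DA replicates 1 and 2 were each a pool of 2 embryos, and the replicate numbered 4 of that group was not analysed here. The comparisons asked whether loss of Prdm6 changed these genes in each vessel, whether the vessels differed, and whether the effect of Prdm6 differed between them.

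As background, endothelial nitric oxide synthase makes nitric oxide, which diffuses into smooth muscle cells and activates soluble guanylate cyclase, while natriuretic peptides activate membrane receptors that are themselves guanylate cyclases. Both make cGMP, which activates cGMP-dependent protein kinase, lowers the calcium available to the contractile apparatus and relaxes the muscle. Phosphodiesterases end the signal. In the fetal DA, relaxing signals hold the vessel open, and nitric oxide is one of them.

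Total counts ranged from 15163974 to 22610547 per library, so that 3 counts, the smallest number taken as detected, stood for 0.133 to 0.198 counts in 1e+06 of the library (CPM), which covers counting error only. Prdm6 itself was lower in Prdm6-deficient samples by a log2 fold change of -0.57 in the DA and -0.69 in the aorta, in a gene count that also takes in exons outside the floxed part. Smooth muscle markers were abundant in all 23 libraries, with 10 genes summing to between 8832 and 25076 CPM. Endothelial markers were present throughout, and 15 genes summed to between 1063 and 2144 CPM. Haemoglobin and other erythroid genes varied widely, from 13158 to 137612 CPM over 5 genes, and in bulk tissue fewer cells of a type and less RNA per cell cannot be told apart.

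In the DA, 7 of the 10 members differed between Prdm6-deficient and control samples, at an adjusted p below 0.01 in edgeR and a log2 fold change beyond 0.5, the limits used throughout. Of all genes tested, 5.43% passed the same limits. The 5 members that rose were both subunits of soluble guanylate cyclase (Gucy1a1 and Gucy1b1), the natriuretic peptide receptor Npr1, the cGMP-dependent kinase Prkg1 and the cGMP-specific phosphodiesterase Pde5a, against 2.61% of all genes. The 2 that fell were Npr3, the receptor that clears natriuretic peptides, and the phosphodiesterase Pde3b, against 2.82% of all genes. Values in CPM did not overlap between Prdm6-deficient and control DA for 6 members, as they did not for 5.66% of all genes. The median log2 fold change of the 10 members was 0.46, beside 0.01 over all genes tested.

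In the ascending aorta, 2 of the 10 members passed, beside 2.45% of all genes, and both were higher in Prdm6-deficient samples (1.63% of all genes): Npr3 and Prkg1. Values did not overlap for 3 members, beside 6.95% of all genes. The median log2 fold change of the members was 0.02, beside -0.00 over all genes tested. Between control DA and control aorta 5 members passed, beside 5.36% of all genes. Npr3 and Pde3b were higher in the DA (3.16% of all genes), and Gucy1a1, Gucy1b1 and Npr1 were lower (2.19% of all genes). Values did not overlap between the control vessels for 4 members, as for 5.36% of all genes.

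Between Prdm6-deficient DA and Prdm6-deficient aorta 0 of the 10 members passed in edgeR, beside 0.267% of all genes, although 5 members had an unadjusted p below 0.05. DESeq2 also called 0 members in this comparison. Values did not overlap for 3 members (3.52% of all genes). The difference between the Prdm6 effects in the 2 vessels, tested as an interaction, passed for 4 members, beside 2.58% of all genes: it was positive for Gucy1a1, Gucy1b1 and Pde5a (0.917% of all genes) and negative for Npr3 (1.66%). In the 2 Prdm6-deficient embryos with single libraries of both vessels, Gucy1a1, Gucy1b1, Pde5a and Pde3b were higher in the DA in 2 of 2, and Nos3, Npr1, Npr2 and Npr3 were lower. For Pde5a, Npr1 and Npr3 this had to be so, as their values did not overlap between the Prdm6-deficient vessels. Some of these differences were small: on the log2 scale 0.087 and 0.10 for Gucy1a1, -0.078 and -0.28 for Npr2 and -0.0032 and -0.29 for Nos3. These comparisons share samples, as the control DA libraries enter 3 of them, so the members' values in each are given side by side and not as repeated evidence.

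**Figure D1:**
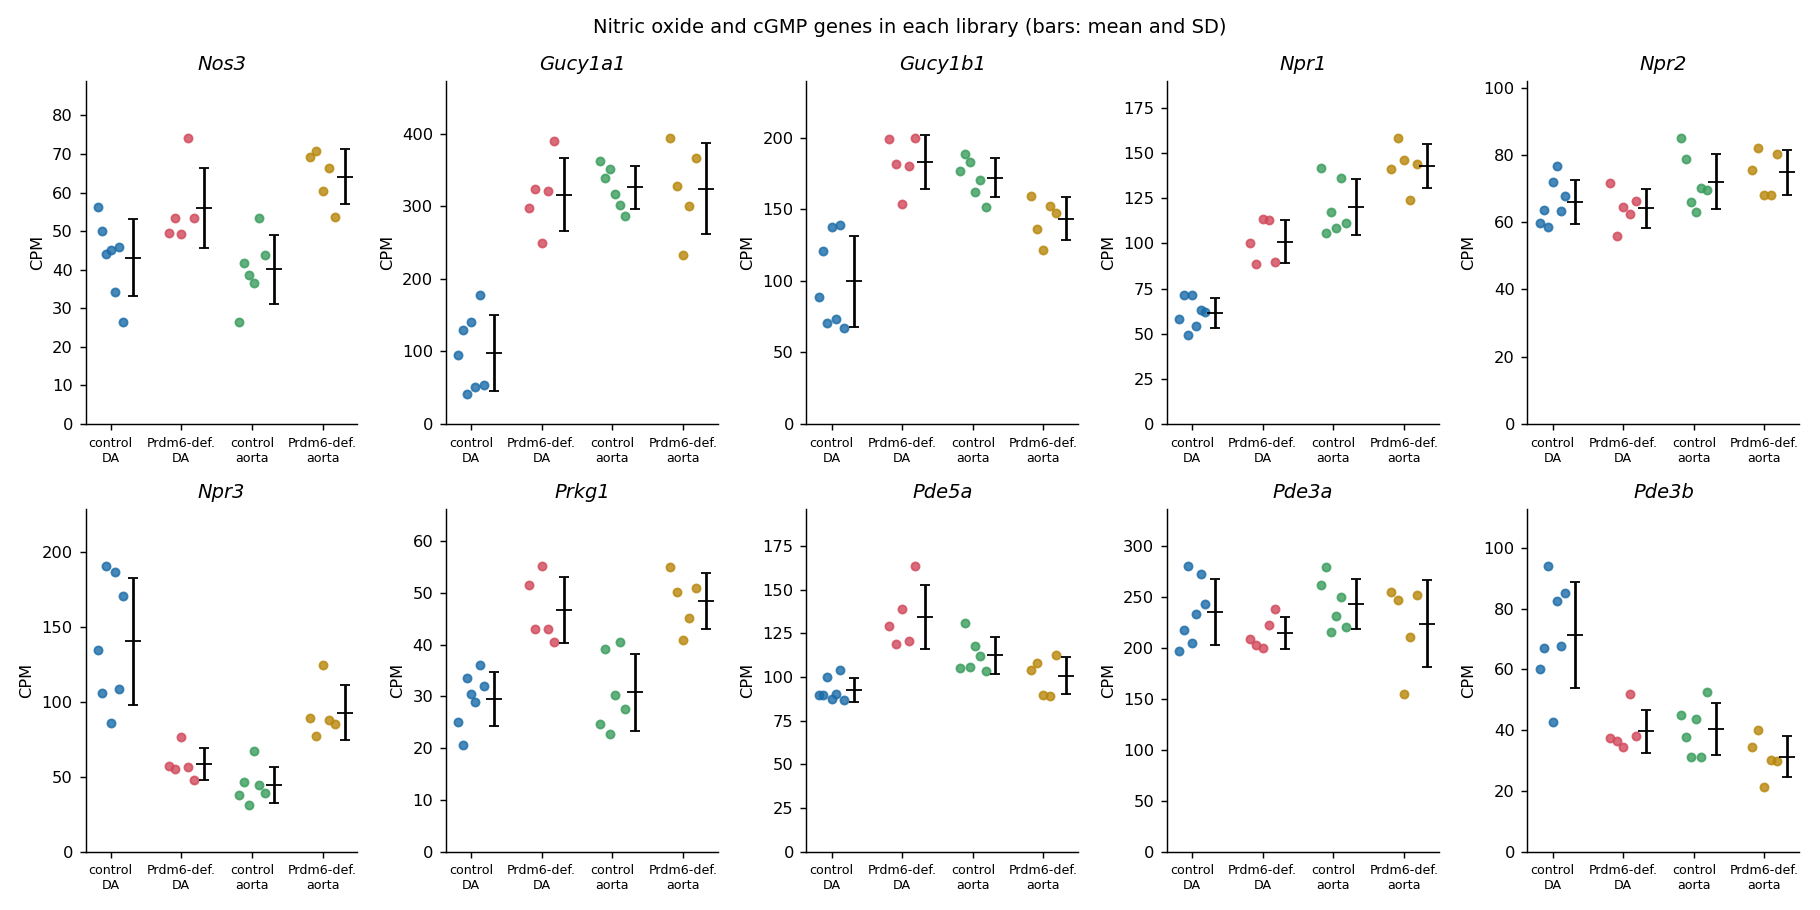
Each panel plots 1 member in CPM (linear axis from 0), with 1 point per library in control DA (7 libraries), Prdm6-deficient DA (5), control aorta (6) and Prdm6-deficient aorta (5). The black marks are the group mean and SD. Control DA stands low for Gucy1a1, Gucy1b1 and Npr1 and high for Npr3 and Pde3b.

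**Figure D2:**
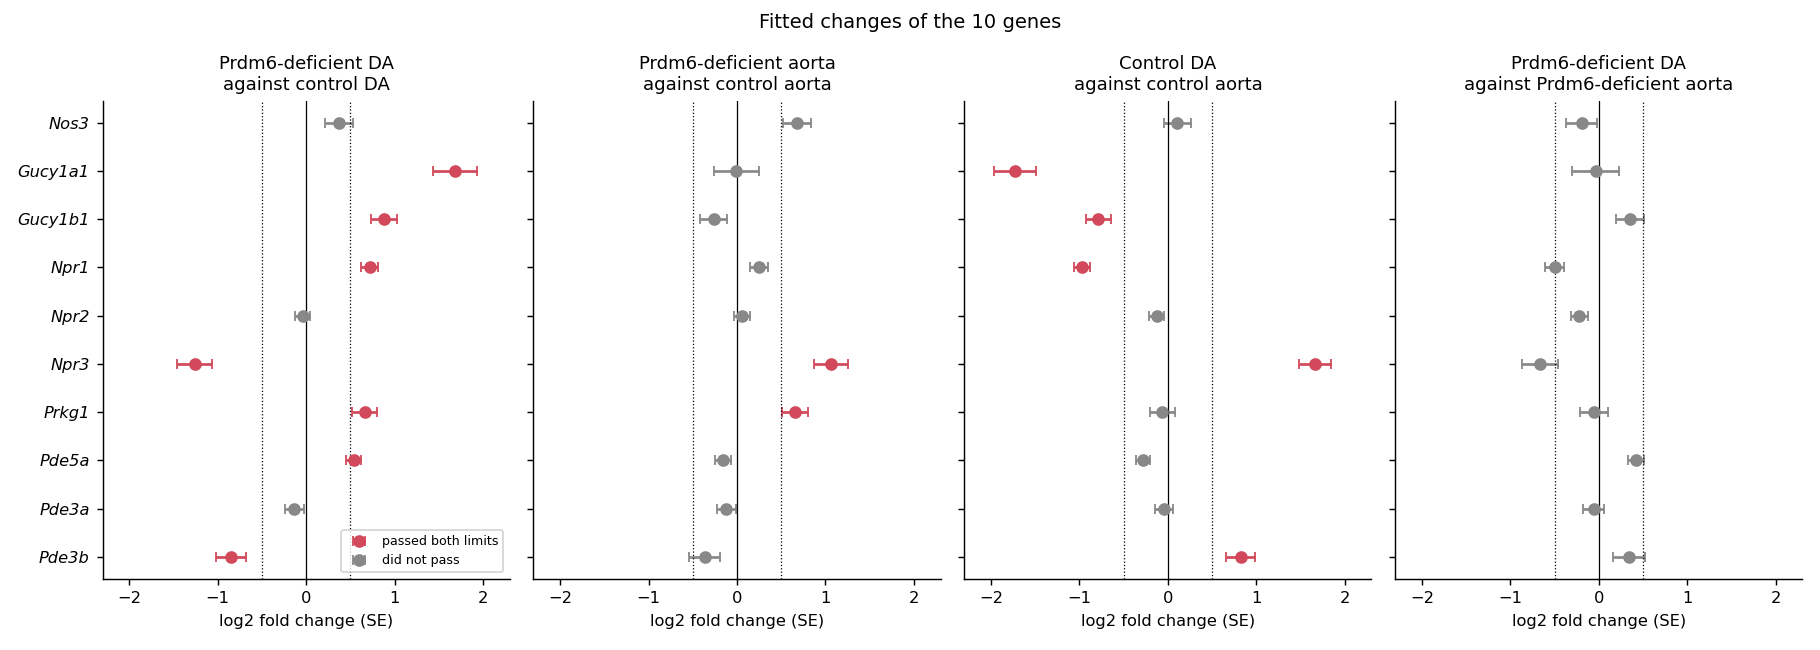
Log2 fold changes of the 10 members in the 4 comparisons between pairs of groups, with bars of 1 SE and dotted lines at 0.5 either way. Red points passed both limits: 7 members in the DA, 2 in the aorta, 5 between the control vessels and 0 between the Prdm6-deficient vessels.

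Soluble guanylate cyclase is the nitric oxide receptor, a pair of an alpha and a beta subunit encoded mainly by Gucy1a1 and Gucy1b1 in smooth muscle. The genes lie on the minus strand of chromosome 3 of mm10, at chr3:82092427-82145789 and chr3:82032006-82074689. RefSeq promoter sequence on GRCm38.p6, the same assembly, was matched for 7 of the 10 members. The 150 bases before an annotated start are shown for Gucy1a1, Gucy1b1 and Npr3, the members with the largest log2 fold changes between Prdm6-deficient and control DA, 5′ to 3′ on the minus strand, with capitals marking GGGCGG, the GC box. The RefSeq start lies 22 bases before the GENCODE gene for Gucy1b1 and 84 bases before it for Npr3, whose bases just after that start were not found in a GENCODE transcript. For Gucy1a1 the downstream of 2 RefSeq starts is shown (chr3:82145074-82145223), beside Gucy1b1 (chr3:82074712-82074861) and Npr3 (chr15:11907372-11907521). By the same measure the Gucy1a1 start shown stands at -716 bases, inside the GENCODE gene.
Gucy1a1: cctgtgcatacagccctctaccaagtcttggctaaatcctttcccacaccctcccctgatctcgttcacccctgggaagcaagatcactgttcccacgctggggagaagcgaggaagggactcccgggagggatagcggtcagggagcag
Gucy1b1: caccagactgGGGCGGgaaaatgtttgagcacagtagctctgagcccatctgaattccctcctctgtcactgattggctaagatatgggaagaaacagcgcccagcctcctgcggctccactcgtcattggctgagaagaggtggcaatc
Npr3: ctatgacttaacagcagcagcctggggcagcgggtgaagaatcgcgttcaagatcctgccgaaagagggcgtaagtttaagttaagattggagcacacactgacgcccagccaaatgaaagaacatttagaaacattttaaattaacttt
On either strand, 28.6% of 32851 RefSeq windows of this length held GGGCGG, which was found for Gucy1b1 and in neither of the other 2 windows shown. Windows of Prkg1, Pde5a and Npr1, which are not shown, held it too. The CArG box, the motif bound by serum response factor, was in 0.916% of all windows and in none of the 7 members' windows, and TATAAA (7.57% of windows) and CACGTG (4.3%) were in none of them either. The GC content of the windows shown was 59.3% for Gucy1a1, 54.7% for Gucy1b1 and 44% for Npr3.

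Gucy1a1 ranged from 40.8 to 177 CPM in control DA, with a median of 95.7 over 7 libraries. In Prdm6-deficient DA replicates 1, 2, 5, 6 and 7 it stood at 297, 324, 250, 321 and 389 CPM. Every Prdm6-deficient DA library lay above every control DA library, with a log2 fold change of 1.68 (SE 0.25), or 3.21-fold, and an adjusted p of 1.91e-05. Control aorta ranged from 287 to 362 CPM with a median of 328, and Prdm6-deficient aorta replicates 1 to 5 stood at 394, 327, 233, 300 and 366 CPM. These aortic groups overlapped, and the log2 fold change between them was -0.01 (SE 0.25; adjusted p = 0.999), with a 95% interval from -0.53 to 0.51. Control DA was below control aorta without overlap, by a log2 fold change of -1.73 (SE 0.24; adjusted p = 7.81e-06). Given that, Gucy1a1 had to be lower in the DA in each of the 6 control embryos with both vessels sequenced. Prdm6-deficient DA and aorta overlapped, with a log2 fold change of -0.04 and a 95% interval from -0.58 to 0.51. The Prdm6 effect in the DA exceeded that in the aorta by 1.69 on the log2 scale (SE 0.36; adjusted p = 0.00342), a call that was lost without the 2 pooled libraries, where the difference was 1.71 with an adjusted p of 0.0125.

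Gucy1b1, the beta subunit that holds the haem to which nitric oxide binds, ranged from 66.9 to 139 CPM in control DA, with a median of 88.8. Prdm6-deficient DA replicates 1, 2, 5, 6 and 7 stood at 199, 182, 154, 180 and 200 CPM. These groups did not overlap, and the log2 fold change was 0.88 (SE 0.15; adjusted p = 0.000119). In control aorta it ranged from 152 to 188 CPM with a median of 174, without overlap with the lower control DA, at a log2 fold change of -0.79 for the DA over the aorta (SE 0.14; adjusted p = 0.000238). As the control vessels did not overlap, it had to be lower in the DA in each of the 6 control embryos with both sequenced. Prdm6-deficient aorta replicates 1 to 5 stood at 159, 136, 121, 153 and 147 CPM, and overlapped the controls (log2 fold change -0.26; 95% interval -0.58 to 0.05; adjusted p = 0.521). The Prdm6 effects in the vessels differed by 1.14 (SE 0.21; adjusted p = 0.00109).

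Per length, the alpha subunit was scarcer than the beta subunit in control DA alone among the 4 groups by median. The ratio of Gucy1a1 to Gucy1b1 in TPM (transcript abundance per library, which divides counts by exon length), chosen after its values were seen and so given with no test, ranged from 0.324 to 0.720 in control DA with a median of 0.578. It was 0.841 to 1.10 in Prdm6-deficient DA, 0.996 to 1.15 in control aorta and 1.08 to 1.40 in Prdm6-deficient aorta. Every control DA library thus lay below every other library in this ratio. TPM was computed with all annotated exons of a gene merged, so a vessel that used other exons would move it.

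Npr1 encodes the guanylate cyclase receptor of atrial and brain natriuretic peptides. It ranged from 49.2 to 71.4 CPM in control DA (median 62.2), and Prdm6-deficient DA replicates 1, 2, 5, 6 and 7 stood at 100, 88.8, 114, 113 and 89.6 CPM. The groups did not overlap, and the log2 fold change was 0.72 (SE 0.10; adjusted p = 6.80e-06). Control aorta ranged from 106 to 142 CPM (median 114) and Prdm6-deficient aorta from 124 to 158 CPM (median 144). Npr1 was thus lower in control DA than in control aorta without overlap, by a log2 fold change of -0.97 (SE 0.09; adjusted p = 3.07e-08), and hence in each of the 6 control embryos with both vessels. In the aorta the groups overlapped and the log2 fold change of 0.25 did not pass (adjusted p = 0.214). Prdm6-deficient DA lay below Prdm6-deficient aorta without overlap, at a log2 fold change of -0.50 (SE 0.11) whose adjusted p of 0.0164 missed the limit. The difference of 0.47 between the Prdm6 effects in the vessels did not pass either (adjusted p = 0.0503).

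Npr2, the guanylate cyclase receptor of C-type natriuretic peptide, passed in none of the 5 comparisons in edgeR or DESeq2. It ranged from 55.8 to 76.6 CPM over the DA libraries and from 63.0 to 85.0 CPM over the aortic ones. Its log2 fold change was -0.04 in the DA (95% interval -0.22 to 0.14) and 0.05 in the aorta (-0.13 to 0.24), and the control vessels differed by -0.13 (-0.30 to 0.04). Prdm6-deficient DA was lower than Prdm6-deficient aorta by a log2 fold change of -0.22 (-0.41 to -0.03), with an unadjusted p of 0.0265 and an adjusted p of 0.390. The groups overlapped in each of these 4 comparisons.

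Npr3 has no cyclase domain and removes natriuretic peptides from the circulation. It was the only member that passed in both vessels in opposite directions. In control DA it ranged from 85.7 to 191 CPM (median 135), and Prdm6-deficient DA replicates 1, 2, 5, 6 and 7 stood at 57.0, 55.1, 77.0, 56.3 and 48.2 CPM. All 5 lay below the lowest control DA library, with a log2 fold change of -1.26 (SE 0.19; adjusted p = 3.55e-05), or 41.8% of the control level. In control aorta it ranged from 31.4 to 67.0 CPM (median 42.1), and Prdm6-deficient aorta replicates 1 to 5 stood at 89.3, 77.5, 125, 87.9 and 85.1 CPM. All 5 lay above the highest control aorta library, with a log2 fold change of 1.06 (SE 0.19; adjusted p = 0.000665). Without the highest of these libraries, Prdm6-deficient aorta replicate 3, it was 0.93.

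Among controls, Npr3 was higher in the DA without overlap, by a log2 fold change of 1.66 (SE 0.18; adjusted p = 2.71e-07), and hence in each of the 6 embryos with both vessels. Prdm6-deficient DA stood below Prdm6-deficient aorta, and its highest value of 77.0 CPM lay just under the lowest aortic value of 77.5. That log2 fold change of -0.66 (SE 0.20) did not pass (adjusted p = 0.147). The Prdm6 effects in the vessels differed by -2.32 (SE 0.27; adjusted p = 4.19e-06), the largest such difference among the 10 members. Npr3 shares 321 exonic bases with Gm5144, a transcript on the opposite strand with 432 counts in all over the 23 libraries. No source used here says that reads were counted by strand, so reads in that stretch cannot be assigned to 1 of them.

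Nos3, endothelial nitric oxide synthase, ranged from 26.4 to 56.4 CPM in control DA (median 45.1), and stood at 49.5, 53.4, 49.4, 74.1 and 53.5 CPM in Prdm6-deficient DA replicates 1, 2, 5, 6 and 7. The groups overlapped, and the log2 fold change of 0.37 (SE 0.16) did not pass (adjusted p = 0.134). In control aorta it ranged from 26.4 to 53.3 CPM (median 40.3), and Prdm6-deficient aorta replicates 1 to 5 stood at 69.3, 70.7, 60.5, 66.5 and 53.6 CPM. These aortic groups did not overlap, by a margin between 53.3 and 53.6 CPM, and the log2 fold change of 0.68 (SE 0.16) just missed the limit (adjusted p = 0.0105). It passed with DESeq2 (adjusted p = 0.00203), when only the aortic groups were fitted (0.00263), with no filter on low counts (0.00802), and without control aorta replicate 5 (0.00387). In the other 10 of 11 fits that left out 1 library it did not pass, with adjusted p values of up to 0.0337. Nor did it pass in 6 of 10 other alternatives, with values of up to 0.127. Control DA and control aorta differed by 0.11 (95% interval -0.20 to 0.42).

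Endothelial markers stood higher in the same aortic samples. The 15 genes summed to between 1529 and 2093 CPM in Prdm6-deficient aorta (median 1845) and to between 1063 and 1726 CPM in control aorta (median 1289). Of the 15, 4 passed, all higher (1.63% of all genes). In the DA the sums were 1534 to 2144 CPM in Prdm6-deficient and 1234 to 1757 CPM in control samples. There 1 of the 15 passed, as higher (2.61% of all genes). The part of these markers in the Nos3 values was not tested. Over the 23 libraries, with group means removed, the gene most like Nos3 was Tek, an endothelial receptor (Pearson's r = 0.82). Nos3 overlaps exons of Gm15587 and of Atg9b on the opposite strand, which had 56 and 115 counts in all.

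Prkg1, the cGMP-dependent kinase that carries the signal to the contractile apparatus, was higher in Prdm6-deficient samples of both vessels. It ranged from 20.6 to 36.1 CPM in control DA (median 30.5) and stood at 51.5, 43.0, 55.2, 43.1 and 40.5 CPM in Prdm6-deficient DA replicates 1, 2, 5, 6 and 7, above all controls. In the aorta it ranged from 22.8 to 40.5 CPM in controls (median 28.9) and stood at 54.9, 50.2, 40.9, 45.1 and 51.0 CPM in Prdm6-deficient replicates 1 to 5, again above all controls. The log2 fold change was 0.66 in the DA (SE 0.14; adjusted p = 0.00211) and 0.65 in the aorta (SE 0.15; adjusted p = 0.00672), and the effects differed by 0.01 (95% interval -0.42 to 0.44). Control vessels differed by -0.06 (-0.35 to 0.22).

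These calls for Prkg1 were near the limit. In the DA the call was lost without Prdm6-deficient replicate 5 (adjusted p = 0.0105), without the pooled libraries (0.0171) and with replicate number as a block (0.0136). In the aorta it was lost in 8 of 11 fits that left out 1 library: without control replicate 1, 3, 4 or 6 or Prdm6-deficient replicate 1, 2, 4 or 5, with adjusted p values of up to 0.0274. It was also lost without the control embryo that carried Cre (0.0111), without the pooled DA libraries (0.0101) and with replicate number as a block (0.0163). The log2 fold change in the aorta stayed between 0.58 and 0.75 over the 11 fits.

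Pde5a degrades cGMP and is the target of sildenafil. It ranged from 87.0 to 104 CPM in control DA (median 89.9) and stood at 129, 119, 139, 121 and 164 CPM in Prdm6-deficient DA replicates 1, 2, 5, 6 and 7, with no overlap. The log2 fold change was 0.54 (SE 0.085; adjusted p = 5.20e-05), and without the highest library, Prdm6-deficient DA replicate 7, it was 0.46, below the fold limit (adjusted p = 0.000351). Control aorta ranged from 103 to 131 CPM (median 109) and Prdm6-deficient aorta from 89.3 to 113 CPM (median 104), which overlapped, with a log2 fold change of -0.16 (95% interval -0.34 to 0.02). The Prdm6 effects in the vessels differed by 0.70 (SE 0.12; adjusted p = 0.000533). Prdm6-deficient DA lay above Prdm6-deficient aorta without overlap, by 0.42 (SE 0.092), at an adjusted p of 0.0226. Control DA was lower than control aorta by a log2 fold change of -0.28 (adjusted p = 0.0205, not passing) and in 6 of 6 embryos.

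The PDE3 enzymes degrade cAMP and are inhibited by cGMP, which ties nitric oxide to the cAMP route of relaxation. Pde3a passed in none of the 5 comparisons, in which its adjusted p in edgeR was 0.517 or more and its unadjusted p below 0.05 in 0. It ranged from 197 to 281 CPM over the DA libraries and from 155 to 280 CPM over the aortic ones, and its log2 fold change was -0.13 in the DA (95% interval -0.35 to 0.09), -0.12 in the aorta (-0.35 to 0.11) and -0.05 between control vessels (-0.26 to 0.16). Its antisense neighbour Gm28523, with which it shares 741 exonic bases, had 998 counts in all.

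Pde3b ranged from 42.7 to 94.1 CPM in control DA (median 67.6) and stood at 37.3, 36.5, 34.5, 51.9 and 37.9 CPM in Prdm6-deficient DA replicates 1, 2, 5, 6 and 7. The groups overlapped, since Prdm6-deficient replicate 6 lay above control replicate 4, and the log2 fold change was -0.85 (SE 0.17; adjusted p = 0.00114). The call was lost without the pooled libraries (-0.79, adjusted p = 0.0218). Control aorta ranged from 31.1 to 52.7 CPM (median 40.9), and control DA was higher, with overlap, by a log2 fold change of 0.82 (SE 0.16; adjusted p = 0.000750). With both vessels of an embryo compared in a blocked fit of the 12 libraries from 6 embryos, this call was lost (0.74, adjusted p = 0.0127), while those for Gucy1a1, Gucy1b1, Npr1 and Npr3 held. Prdm6-deficient aorta ranged from 21.4 to 40.0 CPM (median 30.3), and the log2 fold change of -0.37 in the aorta did not pass (adjusted p = 0.351).

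Animal numbers began with 69 or 70, and the DA comparison was also made within each of these 2 series. In the 70 series, with 2 Prdm6-deficient and 5 control DA libraries, 3 of the 10 members passed, beside 2.37% of all genes, with log2 fold changes of 1.78 for Gucy1a1, -1.42 for Npr3 and 0.62 for Pde5a. Gucy1b1 (0.92), Npr1 (0.53), Prkg1 (0.45) and Pde3b (-0.86) did not pass there. In the 69 series, with 3 Prdm6-deficient and 2 control DA libraries, 0 of the 10 members passed in edgeR, beside 0.897% of all genes, and 7 had an unadjusted p below 0.05. DESeq2 was not run within series. Values there were 1.77 for Gucy1a1, 0.89 for Gucy1b1, 0.85 for Npr1, -1.23 for Npr3, 0.89 for Prkg1, 0.45 for Pde5a and -0.97 for Pde3b. The 7 members thus had the same direction in both series. For all but Pde3b, CPM values did not overlap between Prdm6-deficient and control DA, so any split of these libraries gives that direction. In the aorta the 69 series held 1 control library and was not fitted. In the 70 series 0 members passed in edgeR in the aorta, beside 1.28% of all genes, and 4 had an unadjusted p below 0.05, with log2 fold changes of 0.83 for Npr3 (adjusted p = 0.0378), 0.68 for Prkg1 (0.0200) and 0.68 for Nos3 (0.127). Between the control vessels the 70 series gave 4 members, beside 3.76% of all genes, without Pde3b (0.68, adjusted p = 0.0147). The difference between the Prdm6 effects passed there for Npr3 (-2.25), beside 0.938% of all genes, and not for Gucy1a1 (1.60, adjusted p = 0.0539), Gucy1b1 (1.12, 0.0431) or Pde5a (0.70, 0.0237).

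Markers of cell types moved with the DA comparison too. Of 10 smooth muscle markers 8 passed both limits as lower in Prdm6-deficient DA (2.82% of all genes). The highest log2 fold change of the 10 was -0.50. Their sum ranged from 10111 to 12274 CPM in Prdm6-deficient and from 14203 to 25076 CPM in control DA, without overlap. In the aortic groups it ranged from 8832 to 12503 CPM. Myh11, smooth muscle myosin heavy chain, ranged from 384 to 677 CPM in Prdm6-deficient DA and from 1415 to 2870 CPM in control DA. Of 5 melanocyte markers 4 passed as lower (2.82% of all genes), and the highest log2 fold change of the 5 was -1.68. Their sum was 0 to 1.56 CPM in Prdm6-deficient DA against 27.7 to 218 CPM in control DA. Of 6 fibroblast markers 1 passed as higher (2.61% of all genes), with log2 fold changes of the 6 from -0.02 to 1.44 (median 0.30). Of 3 adipocyte markers tested 2 passed as lower (2.82% of all genes), with log2 fold changes of the 3 from -10.5 to 0.50. The 2 were uneven in control DA: Adipoq ranged from 0 to 29.1 CPM (median 2.07) and Plin1 from 0 to 17.8 CPM (median 2.56). Cidea was higher in Prdm6-deficient DA, at a mean of 5.09 CPM against 3.59 CPM in control DA. Cardiomyocyte markers summed to 44.3 to 1729 CPM in control and to 104 to 552 CPM in Prdm6-deficient DA, and neuron and Schwann cell markers to 9.74 to 153 and 43.8 to 88.3 CPM. In the aorta, 6 macrophage markers summed to 125 to 231 CPM in control and to 73.0 to 102 CPM in Prdm6-deficient samples, without overlap. Between these aortic groups 6.95% of all genes did not overlap. In edgeR 0 of the 6 markers passed both limits there (2.45% of all genes), with a median log2 fold change of -1.19. The part of these markers in the members' values was not tested.

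Within control DA the members were not even. Gucy1a1 stood at 95.7, 129, 40.8, 141, 51.1, 177 and 54.3 CPM in replicates 1 to 7, and Npr3 at 135, 106, 191, 85.7, 187, 109 and 171 CPM. Replicates 3, 5 and 7, with the 3 lowest Gucy1a1 values, had the 3 highest Npr3 values, and they also had the 3 lowest Gucy1b1 values, at 70.9, 73.4 and 66.9 CPM. Smooth muscle markers summed to 23115, 25076 and 18516 CPM in these 3 libraries and to 14749, 14203, 17588 and 21759 CPM in replicates 1, 2, 4 and 6.

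Over all 23 libraries with group means removed, Gucy1a1 and Gucy1b1 moved together (Pearson's r = 0.93), and each moved against Npr3 (r = -0.78 for both). These points share dissection and library preparation, and r is a description. By the same measure the 5 genes most like Gucy1a1 were Lbh (0.95), Ramp1 (0.94), Gucy1b1 (0.93), Spon1 (0.92) and Olfml2a (0.92). Those most like Npr3 were Ntn3 (0.86), Farp1 (0.86), Picalm (0.81), Zfp503 (0.79) and Hoxa4 (0.79). For Pde5a the closest gene was Ahnak (0.82), for Pde3a F2r (0.83), for Pde3b Eif3a (0.82), for Prkg1 Fat1 (0.79), for Npr1 Ppp4c (0.78) and for Npr2 Sec24c (0.74).

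**Figure D3:**
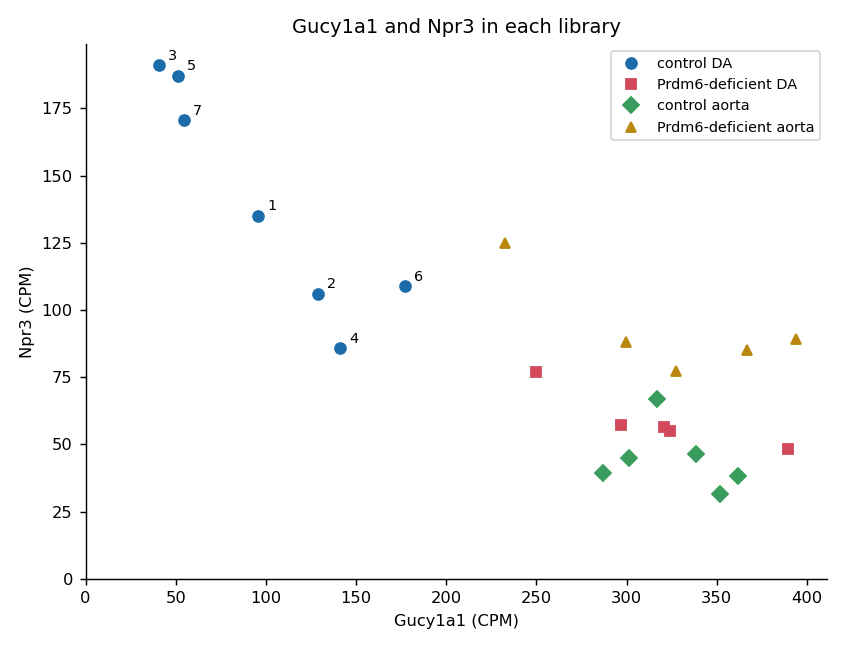
Npr3 against Gucy1a1, both in CPM on linear axes, with 1 point per library and the control DA libraries numbered by replicate. Control DA replicates 3, 5 and 7 combine Gucy1a1 of 40.8 to 54.3 CPM with Npr3 of 171 to 191 CPM, and Prdm6-deficient DA lies at Gucy1a1 of 250 to 389 CPM and Npr3 of 48.2 to 77.0 CPM.

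Levels can be compared between genes only per length. TPM lacks the TMM scaling between libraries that CPM has. In TPM, Npr1, Prkg1 and Pde5a overlapped between Prdm6-deficient and control DA, as they did not in CPM. So did Prkg1 between the aortic groups, Gucy1b1 between control vessels and Pde5a between Prdm6-deficient vessels. In TPM, control DA held Gucy1b1 highest (70.5 ± 19.7, SD, n = 7), followed by Pde3a (52.3 ± 9.16), Npr3 (42.8 ± 15), Npr2 (39.8 ± 4.78), Gucy1a1 (39.0 ± 19.6) and Npr1 (36.0 ± 4.23). Nos3 (29.3 ± 6.52), Pde5a (26.5 ± 2.80) and Pde3b (22.3 ± 6.55) followed, and neighbours down to Pde3b overlapped in range. Prkg1 (7.64 ± 1.40) lay below all others without overlap. In Prdm6-deficient DA both cyclase subunits led, Gucy1b1 at 122 ± 20.3 and Gucy1a1 at 120 ± 31.5 (n = 5), overlapping each other and above Npr1 (55.3 ± 10.8) without overlap.

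Npr3 ranked 3 of 10 in control DA and 8 of 10 in Prdm6-deficient DA (16.3 ± 3.71 TPM), near Pde3b (11.5 ± 3.15) and Prkg1 (11.1 ± 1.59). Control aorta had Gucy1a1 (122 ± 16.8) and Gucy1b1 (114 ± 16.3, n = 6) in front, then Npr1 (66.0 ± 13.7), and Npr3 ranked 8 of 10 (12.1 ± 2.15). In Prdm6-deficient aorta Gucy1a1 stood at 134 ± 30.2, Gucy1b1 at 105 ± 16.5 and Npr1 at 85.6 ± 9.21 TPM (n = 5). Npr3 was again at rank 8 there (28.1 ± 3.21) and did not overlap Prkg1 below it (12.9 ± 1.98).

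**Figure D4:**
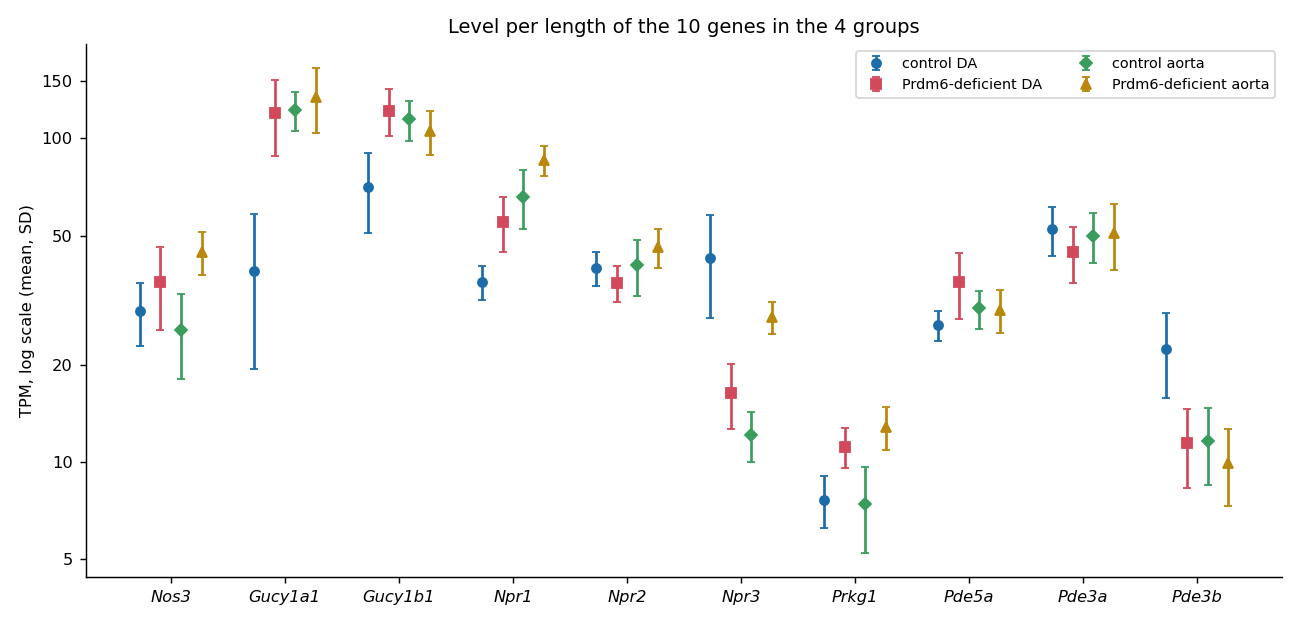
Mean level per length (TPM, log axis) of the 10 members in the 4 groups, with bars of 1 SD over 7, 5, 6 and 5 libraries. Gucy1a1 averages 39.0 TPM in control DA and 120 to 134 TPM in the other groups, and Npr3 is highest in control DA at 42.8 TPM.

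Beyond the 10 members, 50 other genes of the route were listed, of which 43 had enough counts to be tested. In the DA 1 of the 43 rose (2.61% of all genes) and 4 fell (2.82%), with a median log2 fold change of -0.11. Corin, the protease that activates the atrial natriuretic peptide precursor, ranged from 4.56 to 78.3 CPM in control DA (median 21.3) and from 62.6 to 152 CPM in Prdm6-deficient DA (median 97.3), which overlapped, with a log2 fold change of 1.84 (SE 0.43; adjusted p = 0.00388). Pde10a, a phosphodiesterase of both cyclic nucleotides, fell from a median of 14.7 CPM (12.1 to 20.3) to one of 2.62 CPM (0.916 to 4.48), by 2.47 on the log2 scale, without overlap. Rgs2, a regulator of G protein signalling that cGMP-dependent kinase activates, fell from a median of 26.5 CPM (21 to 38.4) to one of 12.2 CPM (9.03 to 15.9), by 1.16. Ppp1r12a, the targeting subunit of myosin phosphatase, fell by 0.59 and Hsp90aa1, a chaperone that binds nitric oxide synthases, by 0.52, both without overlap.

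Against the 5.43% of all genes that passed either way in the DA, the list holds 19 tested genes of nitric oxide synthesis and its control, of which 1 passed in the DA (Hsp90aa1), 10 cGMP effectors, of which 2 passed (Rgs2 and Ppp1r12a), 8 genes of cGMP breakdown and export, of which 1 passed (Pde10a), 4 of natriuretic peptides and their processing, of which 1 passed (Corin), and both other cyclase subunits, of which 0 passed in edgeR or DESeq2, with 0 at an unadjusted p below 0.05. Those subunits were low: Gucy1a2 reached at most 2.94 CPM and Gucy1b2 at most 1.40 CPM in any library. The genes of the other nitric oxide synthases were low as well, with Nos1 at most at 1.26 CPM and not tested and Nos2 at most at 1.38 CPM. Of the natriuretic peptides, Nppb and Nppc were not tested (at most 0.963 CPM) and Nppa reached at most 8.72 CPM. Arg1, Arg2, Pde11a and Trpc6 were not tested either.

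In the aorta 3 of the 43 rose (1.63% of all genes) and 1 fell (0.826%), with a median of 0.02. Mme, neprilysin, which degrades natriuretic peptides, rose from a median of 3.62 CPM (1.31 to 7.47) in control aorta to one of 35.4 CPM (27.2 to 39.0) in Prdm6-deficient aorta, a log2 fold change of 3.30 (SE 0.36). Ddah1, which breaks down an inhibitor of nitric oxide synthase, rose from a median of 22.6 CPM (15.6 to 25.4) to one of 44.2 CPM (43.2 to 48.6), by 1.04 (SE 0.17), and Itpr1, a calcium release channel, by 0.51 (SE 0.11). Kcnma1, the pore of the large-conductance potassium channel, fell from a median of 2.32 CPM to one of 0.458 CPM, by 2.20 (SE 0.52). Its adjusted p of 0.00946 was just under the limit, and it was low, with at most 17 counts in any Prdm6-deficient aorta library. Kcnma1 was also lower in Prdm6-deficient than in control DA, by a log2 fold change of -1.51 that did not pass (adjusted p = 0.037). These 4 genes did not overlap between the aortic groups, as 6.95% of all genes did not. Of the listed genes that did not pass, Hsp90aa1, Gucy1b2 and Hspb6 (lower) and Rgs2 and Pde9a (higher) did not overlap there either.

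Between control vessels 7 of the 43 were higher in the DA (3.16% of all genes) and 1 was lower (2.19%), with a median of 0.07. Among these 8 genes, the 5 largest differences were those of Pde10a (log2 fold change 2.19), Mme (1.73), Rgs2 (1.38), Kcnmb1, the beta subunit of the same potassium channel (1.24), and Ddah1 (0.98). Between Prdm6-deficient vessels 0 of the 43 passed in edgeR (0.267% of all genes), with 6 at an unadjusted p below 0.05, and DESeq2 called 3. The Prdm6 effects in the vessels differed for 5 of the 43 (2.58% of all genes), positively for Cav1, caveolin, which holds nitric oxide synthase inactive (0.80), and negatively for Mme (-3.38), Pde10a (-3.02), Rgs2 (-1.58) and Kcnmb1 (-0.98).

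**Figure D5:**
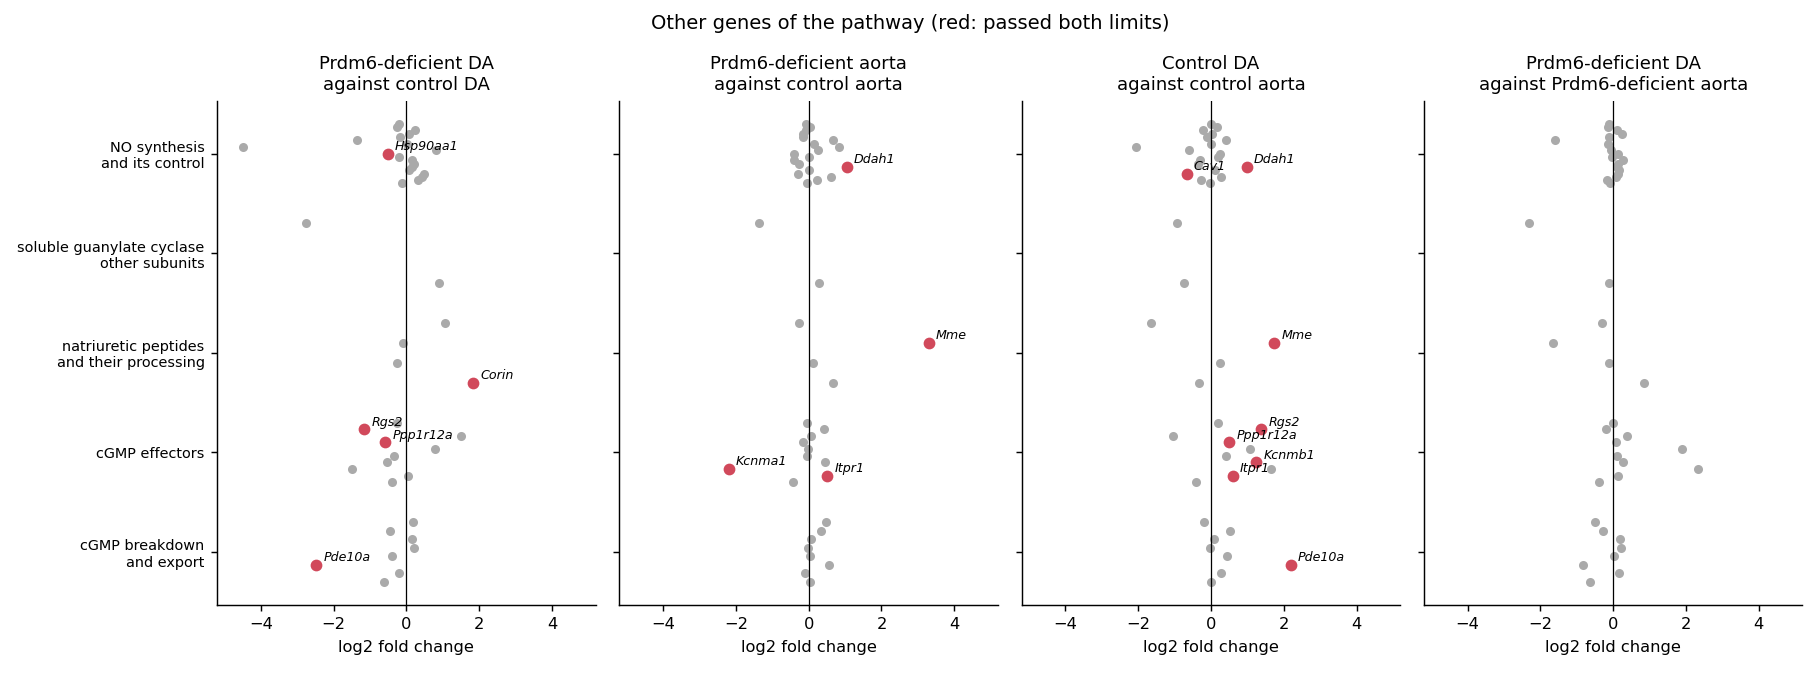
Log2 fold changes of the 43 other tested genes of the route in 5 lists, in the 4 comparisons between pairs of groups, with 1 point per gene and those that passed both limits in red with their symbol. The red points number 5 in the DA, 4 in the aorta, 8 between the control vessels and 0 between the Prdm6-deficient vessels.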

How the data were processed

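The authors filtered the reads, aligned them to mm10 with STAR and estimated expression with RSEM, and versions of these tools are not given in the sources used here. The deposited values are expected counts from RSEM for each gene, without normalization, and were rounded to whole numbers here. Libraries were grouped by their titles, and 23 of 24 labelled samples had a column, with 0 columns left unmatched. Nothing says that the samples of a group came from separate litters, so p-values measure the spread between these embryos or pools.

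Symbols, coordinates and exon lengths came from GENCODE M21 (mm10). Of 54752 identifiers 54723 matched without their version. Counts were tested with edgeR 4.0.16 (filterByExpr, TMM, quasi-likelihood test, 1 mean for each vessel and genotype, all 23 libraries) in R 4.3.3, with Benjamini-Hochberg adjustment over 16463 genes. The limits for a call were 0.01 for the adjusted p and 0.5 either way for the log2 fold change. SE is the log2 fold change divided by the root of F, and 95% intervals use the t quantile at the test's degrees of freedom. CPM values are TMM-scaled. DESeq2 1.42.0 was an alternative. The test was tried on simulated data.

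The members and lists were chosen with earlier results of these data known. Named are the 10 members, up to 5 called genes of the other lists per comparison, and the 5 genes most like a member, or the closest of them, by Pearson's r on group-centred log2 CPM. Replicates did not agree within sampling noise in any of 56 pairs within groups. Same-numbered samples of 2 groups correlated in their deviations between -0.05 and 0.13, so numbers were not taken as pairs. Alternatives were DESeq2, its size factors, no filter, only the groups compared, leaving out libraries, the 69 or 70 series of animal numbers alone or as a covariate, blocks, and a threshold of 0.05. Plots used matplotlib 3.10.9.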

Additional observations from a re-analysis of the deposited data

Results flagged for a closer look

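The Prdm6 effect differed between the DA and the aorta, by the interaction test in edgeR, for 4 of the 10 members: by 1.69 for Gucy1a1, 1.14 for Gucy1b1, 0.70 for Pde5a and -2.32 for Npr3 on the log2 scale, DA minus aorta.

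In 3 of the 40 groups of libraries looked at (10 genes in 4 groups), 1 library lay far from the others of its group by Dixon's gap, and chance gives about 1 in 20. Prdm6-deficient DA replicate 6 stood high for Nos3 (74.1 CPM, the others 49.4 to 53.5) and for Pde3b (51.9 CPM, the others 34.5 to 37.9). Endothelial markers summed highest among the DA libraries in the same replicate, at 2144 CPM. Prdm6-deficient aorta replicate 3 stood high for Npr3 (125 CPM, the others 77.5 to 89.3) and had the lowest Gucy1a1 (233 CPM), Pde3a (155 CPM) and Pde3b (21.4 CPM) of its group. The cause was not tested.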

How the results depend on the processing

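Of the members' log2 fold changes under alternatives, 1130 kept their direction and their side of the limits, 35 lost the call, 8 gained it and 47 changed sign. The count of members called in the DA was 6 to 7 when 1 library was left out, and it fell from 7 to 3 within the 70 series of animal numbers and to 0 within the 69 series, fits of fewer libraries. In the aorta it was 1 to 3 when 1 library was left out, 1 without the pooled DA libraries, 1 without the control embryo with Cre, 0 within the 70 series and 1 with the replicate block. Between Prdm6-deficient vessels it rose to 2 (Pde5a and Npr1) at an adjusted p below 0.05 with no fold limit. For the interaction it fell to 1 (Npr3) within the 70 series. The cause was not tested.

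With the replicate block 6 members were called in the DA, 5 between control vessels, 0 between Prdm6-deficient vessels and 4 for the interaction, and same-numbered samples were not found to be paired. Blocking by embryo left 4 calls between control vessels (12 libraries, 6 blocks). Between Prdm6-deficient vessels blocking left 0 calls, with only 7 libraries in 3 blocks. There a pooled DA library shared a block with the separate aortas of its embryos.

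Over all genes, 894 were called in the DA, but 419 within the 70 series, 147 within the 69 series and 2036 at an adjusted p below 0.05 with no fold limit. In the aorta 404 were called, but 702 with only the groups compared fitted, 226 within the 70 series and 829 at the looser limit. Between control vessels the looser limit gave 1869 in place of 882, and for the interaction it gave 856 in place of 425, which was 166 within the 70 series. Between Prdm6-deficient vessels 44 were called, but 134 with DESeq2, 83 with only these groups fitted, 15 without the pooled libraries, 6 and 2 within the 70 and 69 series, 16 with the replicate block, 27 with blocks of embryos, 22 to 50 with 1 library left out and 149 at the looser limit.

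The changes of sign concerned values near 0 that passed in no fit. Npr2 in the DA was 0.12 within the 69 series and -0.082 to 0.0071 with 1 library left out. Gucy1a1 in the aorta was 0.013 without the control embryo with Cre, 0.030 with the series as a covariate, 0.18 within the 70 series, 0.023 with the replicate block and -0.092 to 0.089 with 1 library left out. Pde3a in the aorta was 0.016 within the 70 series. Prkg1 between control vessels was -0.14 to 0.031 with 1 library left out. Between Prdm6-deficient vessels Gucy1a1 was 0.020 with the series as a covariate, 0.12 within the 69 series and -0.13 to 0.042 with 1 library left out, and within that series Prkg1 was 0.21 and Pde3a 0.21. For the interaction Prkg1 was -0.0028 without the pooled libraries, -0.23 within the 70 series, -0.048 with the replicate block and -0.084 to 0.083 with 1 library left out. Pde3a was 0.023 without the pooled libraries, 0.00094 without the control embryo with Cre, 0.00012 with the series as a covariate and -0.12 to 0.039 with 1 library left out.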
